A study of Homo sapiens with 4 samples.

Results

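PMAIP1, BTG2, GADD45A, ZMAT3, SESN1 and BCL2 are 5 genes known to be switched on by p53 and 1 regulator of apoptosis that opposes it. They were chosen by gene symbol from the 6763 genes of the authors' deposited table, and all 6 were found there with 8 of its 9466 listed peaks. The choice was made with their input levels and m6A values known, so both are a description and carry no test. BEAS-2B, a line of immortalised cells from human bronchial epithelium, received a plasmid that overexpresses METTL16 or an empty control plasmid. Each arm gave 1 input library and 1 library after precipitation with an m6A antibody, which makes 4 libraries in 4 groups of 1, all from transfected cells of the same line. No replicate exists, the depth of the libraries is unknown, and METTL16 has 0 lines in the table, so its overexpression was not checked here. Of the epithelial markers KRT8, KRT18 and DSP were listed, at 54.2, 59.0 and 20.4 FPKM in the overexpression input, while 8 further ones had no line. The same 3 stood at 46.1, 59.6 and 18.2 FPKM in the control input. Of the mesenchymal markers VIM, also made by cultured epithelium, had 510 FPKM in the overexpression input and 499 in the control input, and COL1A1 and PDGFRB had 2.28 and 1.55 against 2.33 and 1.51. The 1 listed immune marker of 5, CD68, had 57.7 FPKM against 41.6, a log2 change of 0.46 in the direction of the p53 targets, and its part in their values was not tested.

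p53 is a transcription factor that is held low by the ubiquitin ligase MDM2 and accumulates after DNA damage and other stress. Its target genes halt the cell cycle, aid DNA repair, restrain mTORC1 signalling or start apoptosis, and MDM2 and the phosphatase gene PPM1D are targets that feed back on p53 itself. In the mitochondrial branch of apoptosis, BH3-only proteins such as NOXA, the product of PMAIP1, bind the protective members of the BCL2 family, so that BAX and BAK can open the outer membrane. N6-methyladenosine (m6A) is a mark on mRNA that is recognised by reader proteins and can alter the stability and translation of a transcript. METTL16 is one of the enzymes that place it.

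The 5 p53 target genes were higher in the overexpression input, and BCL2 had a lower one. FPKM, a count of fragments scaled to transcript length and library size, was given per gene, and an input change is log2((FPKM + 1)/(FPKM + 1)), overexpression over control. Of the 6 genes, 5 had a change above 0, as did 42.1% of the 5467 listed genes that reached 1 FPKM in at least one input. Genes without a listed m6A peak have no FPKM here. Wherever all genes, ranks or groups of like abundance are given, they cover these listed genes and not the whole transcriptome. At least 1.2-fold higher on this scale were 4 of the 6, against 3.46% of all those genes, and 0 of the 6 were at least 1.2-fold lower, against 3.44%. Since these values chose the genes, nothing is read from the contrast with the background. SESN1, at 0.26, just missed the 1.2-fold threshold. With a pseudocount of 0.1 SESN1 (0.34) and BCL2 (-0.26) passed it as well, which makes 5 members higher and 1 lower, beside 5.62% and 7.13% of all genes. The authors' deposited table gives an expression p-value between 0.27 and 0.72 for each of the 6 genes and a q-value of 1 for all of them. Those p-values compare 2 single libraries.

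**Figure D1:**
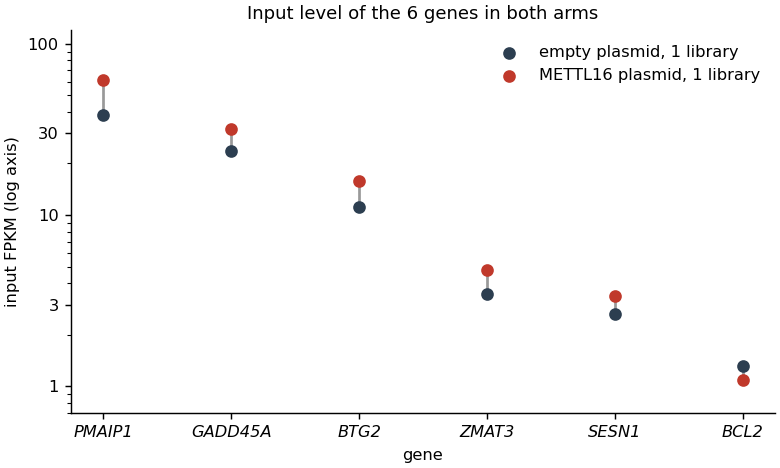
Input FPKM (log axis) of the 6 genes, 1 point per library, dark for the empty plasmid and red for the METTL16 plasmid. The red point is above the dark one for 5 genes, from PMAIP1 at 61.4 against 38.2 down to SESN1 at 3.37 against 2.64, and below it for BCL2 at 1.08 against 1.32.

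The m6A values of the same genes mostly lay on the lower side. The authors' deposited table lists a log2 fold change per peak, and a value below 0 is lower in the overexpression arm. Of the 8 peaks, 7 were below 0, against 71.5% of all listed peaks, and the peak in the 5'UTR of SESN1 was above 0. The authors mark a peak as differential at p below 0.05 and at least 2-fold. By that mark 4 of the 8 peaks were lower, against 27.2% of all listed peaks, and 1 was higher, against 16.5%. The marked peaks lay on 4 of the genes, GADD45A, ZMAT3, SESN1 and BCL2. Only the BTG2 peak had an adjusted p below 0.05 in the authors' deposited table, where 25.6% of all listed peaks did, and at 1.39-fold lower it is not marked as differential. The median of the 8 peaks was -1.02, beside -0.38 over all listed peaks. The table holds no peak with a p-value of 0.05 or more, so peaks above that limit are not seen. The m6A p-values rest on 1 precipitate and 1 input per arm and do not measure variation between replicates.

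**Figure D2:**
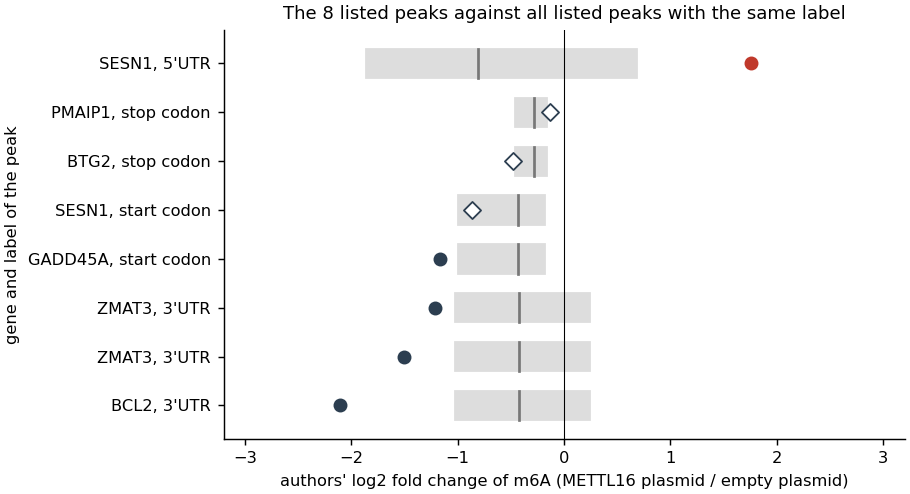
The authors' log2 fold change of m6A for the 8 listed peaks (points; filled circles are marked differential, open diamonds are not), with the middle 50% of all listed peaks of the same label as a grey bar and their median as a line. GADD45A, both ZMAT3 peaks and BCL2 lie to the left of their bars, PMAIP1 and the 5'UTR peak of SESN1 lie to the right, and BTG2 lies just left of its bar.

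PMAIP1 encodes NOXA, the BH3-only protein that binds MCL1. It had the largest input change of the 6 genes, with 61.4 FPKM in the overexpression input and 38.2 in the control input, a log2 change of 0.67 and a plain ratio of 1.61. That was rank 24 of 5467 genes from the highest change. Among the 547 most abundant of these listed genes, where the central 95% of changes ran from -0.25 to 0.37, it was the highest. Its single listed peak, labelled stop codon (chr18:59899996-59903869, plus strand, hg38), started at the first base of the gene and spanned 3874 bases with introns, or 89.9% of the gene. A span of that width does not place the methylated base. Its value, -0.13 per the authors' deposited table (p = 0.0037, adjusted p = 0.060), was the smallest of the 8. It turns positive, at 0.25, when centred on the median of all listed peaks, which follows from subtracting a median of -0.38. Its direction thus depends on whether such centring is applied, and the scaling between libraries was not tested. Of the 1372 stop codon peaks, 79.5% had a lower value.

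BTG2, an antiproliferative protein that recruits the CCR4-NOT deadenylase to mRNA, came next in input change. Its level was 15.8 FPKM in the overexpression input and 11.2 in the control input, a log2 change of 0.46 and a plain ratio of 1.41. In its group of 547 genes of like abundance it ranked 2. The stop codon peak (chr1:203305616-203308220, plus strand) began 97 bases after the RefSeq start site and covered 63.8% of the gene. Its value was -0.48 in the authors' deposited table, with p = 0.00024 and an adjusted p of 0.0095, the smallest of the 8 peaks. Centred on all listed peaks it came to -0.10. Of all stop codon peaks, 23.9% had a lower value.

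PMAIP1 and BTG2 had the highest input changes of the 6 genes, and their promoters are shown for that reason, as the 250 bases before the start site in RefSeq (GRCh38.p14), 5' to 3' on the plus strand of chromosomes 18 and 1. Capitals mark the letters TGACG or, on the other strand, CGTCA, the core that factors of the CREB and ATF family recognise.
PMAIP1, chr18:59899746-59899995: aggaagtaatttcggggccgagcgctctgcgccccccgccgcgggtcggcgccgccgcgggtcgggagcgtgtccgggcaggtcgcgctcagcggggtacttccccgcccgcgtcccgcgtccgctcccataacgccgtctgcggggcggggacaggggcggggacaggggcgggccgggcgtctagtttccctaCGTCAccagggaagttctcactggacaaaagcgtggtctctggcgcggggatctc
BTG2, chr1:203305269-203305518: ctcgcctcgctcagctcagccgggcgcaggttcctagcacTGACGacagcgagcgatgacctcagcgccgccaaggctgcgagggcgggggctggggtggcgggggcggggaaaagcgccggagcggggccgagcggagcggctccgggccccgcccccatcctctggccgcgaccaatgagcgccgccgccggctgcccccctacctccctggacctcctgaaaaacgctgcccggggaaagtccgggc
The match lay 55 to 51 bases before the start site in PMAIP1 and 210 to 206 bases before it in BTG2. The same letters are found in 21.2% of the 35116 RefSeq windows of this length, and BCL2, whose input change was below 0, holds them as well. The GC box GGGCGG, searched on both strands, occurred 4 times in PMAIP1 and 3 times in BTG2, and in 42.6% of all windows at least once. A match describes the letters only.

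GADD45A, a small stress protein that binds PCNA and the kinase MTK1, had 31.7 FPKM in the overexpression input and 23.8 in the control input. The log2 change was 0.40, and 10 of the 547 genes of like abundance had a larger one (rank 11). Its peak is labelled start codon (chr1:67685201-67685837, plus strand), starts at the first base of the gene and spans 637 bases, 20.3% of it. Its m6A value was low for a transcript of this abundance. It was -1.16 in the authors' deposited table (p = 0.020, adjusted p = 0.16), and only 8.02% of the 923 listed peaks on genes of like FPKM had a lower one. In that abundance group 18.2% of peaks are marked differential. Beside its own label the value was less extreme. Of the 516 listed start codon peaks, 19.8% had a lower value, and 38.0% are marked differential.

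ZMAT3, a zinc finger protein that binds RNA, had 4.76 FPKM in the overexpression input and 3.44 in the control input, a log2 change of 0.37. It ranked 7 among 546 genes of like abundance. Both of its listed peaks are labelled 3'UTR on the minus strand, are short, and lie 75 bases apart near the end of the gene. In the direction of transcription the first (chr3:179019282-179019456, 175 bases) stood at -1.505 on the log2 scale of the authors' deposited table (p = 0.014, adjusted p = 0.13). The second (chr3:179018782-179019206, 425 bases) stood at -1.22 on the scale of the authors' deposited table (p = 0.044, adjusted p = 0.24) and ended 1559 bases before the end of the gene; centred on peaks of like FPKM it came to -0.77. The neighbouring peaks thus had the same direction and similar size, and they share 1 transcript, so they are not independent. Among the 4058 listed 3'UTR peaks, 16.7% and 20.8% had a lower value.

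**Figure D3:**
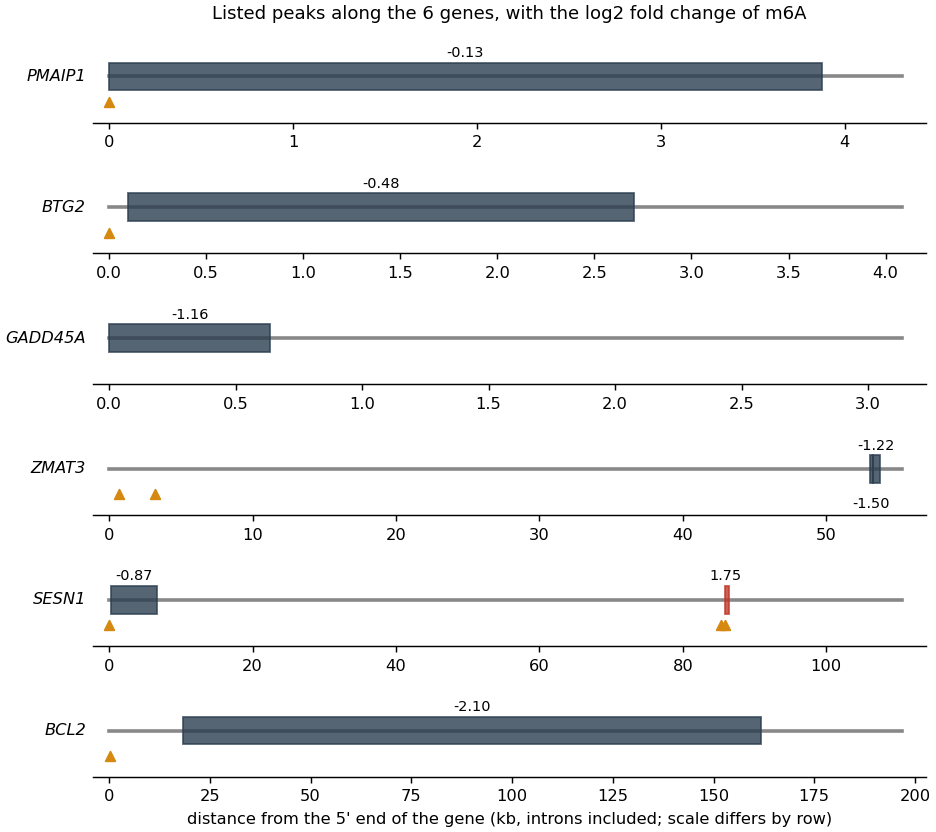
The 8 listed peaks (boxes, dark for a lower and red for a higher m6A value, with the authors' log2 fold change) along the RefSeq span of each gene (grey line), in kb from its 5' end; triangles are RefSeq start sites where a promoter window was given. In SESN1 the peak at -0.87 lies by the upstream start site and the narrow peak at 1.75 lies by the internal start sites, more than 85 kb further on.

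SESN1 encodes sestrin 1, which restrains mTORC1 through the GATOR complexes, and it had m6A values on both sides of 0. Among the other members only ZMAT3 has 2 listed peaks, so the rest could not show this. Of the 1928 genes with 2 or more listed peaks, 742 (38.5%) had values on both sides. Of 18 genes with a 5'UTR and a start codon peak, 3 had a higher differential 5'UTR peak and a lower start codon peak. The input level of SESN1 was 3.37 FPKM with the METTL16 plasmid and 2.64 with the empty plasmid. That is a log2 change of 0.26 and rank 19 among 547 genes of like abundance. The start codon peak (chr6:109088135-109094545, minus strand) began 301 bases after the upstream start site of the gene and had a value of -0.87 in the authors' deposited table (p = 0.010, adjusted p = 0.11), or -0.49 centred on all listed peaks and -0.34 on those of like FPKM. The 5'UTR peak (chr6:109008794-109008918), only 125 bases long, lay 85928 bases after that start site. The authors' deposited table gives it 1.75 on the log2 scale, or 3.37-fold higher (p = 0.016, adjusted p = 0.14). RefSeq has internal start sites 70 and 634 bases before this peak, so the peaks lie beside different starts of the gene.

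The 5'UTR value of SESN1 was above most others of its label. Of the 489 listed 5'UTR peaks, 140 were above 0, 71 exceeded that of SESN1, and the median was -0.81. With this label 67.7% of peaks are marked differential, and so are 50.9% of peaks on genes of like FPKM. Input FPKM is given per gene and does not separate transcripts from the different start sites. The 5'UTR peak also lies within the span of ARMC2, a gene on the opposite strand with 0 lines in the table, and whether strand was used in counting is not stated.

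A short stretch before the internal start site of SESN1 is shown because it was the only promoter window of the 6 genes with the 10-letter p53 consensus unit, which p53 binds as a pair. It is read 5' to 3' on the minus strand in RefSeq (GRCh38.p14), with the unit in capitals.
SESN1, chr6:109009018-109009047: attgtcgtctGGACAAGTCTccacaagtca
The unit lay 49 to 40 bases before the start site, in a window next to the peak that was higher. Of all 35116 windows of 250 bases, 5.57% hold the unit, which reads the same on both strands. Windows were given for 5 of the genes, 8 windows in all, and the upstream start of SESN1 held 0 matches. A window without these letters says nothing about binding by p53 elsewhere in a gene.

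BCL2, the protective protein that holds BAX and BAK in check, was the one member with a lower input level. It had 1.08 FPKM in the overexpression input and 1.32 in the control input, a log2 change of -0.16. The authors' deposited table, which adds no such pseudocount, has -0.29. With the pseudocount of 1, in its group of 546 low transcripts, 121 genes had a lower change (rank 122 from the lowest), and the central 95% ran from -0.47 to 0.49, so the input values of BCL2 lay well inside the spread of such genes. The peak, labelled 3'UTR (chr18:63158235-63301805, minus strand), had the lowest m6A value of the 8, -2.10 or 4.30-fold lower in the authors' deposited table (p = 0.012, adjusted p = 0.12), and -1.25 centred on peaks of like FPKM. It spans 143571 bases, 73.0% of the gene with introns, and stops 34889 bases short of the gene's 3' end in RefSeq. The label therefore does not place it in the last exon. At this abundance 73.5% of listed peaks are marked differential, and 21.7% of all 923 listed peaks there have a value lower than that of BCL2. In bulk RNA, fewer cells with a transcript and less of it per cell cannot be told apart.

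Higher input and lower m6A went together beyond these genes. Of the 255 listed peaks on the 189 genes with an input at least 1.2-fold higher, 84.3% were below 0, with a median of -0.48. On the 5090 genes within 1.2-fold the share was 72.2% and the median -0.35. On the 188 genes at least 1.2-fold lower, 58.5% of 248 peaks were below 0, with a median of -0.27. The 5 p53 target members had 6 of 7 peaks below 0. An m6A value that is taken relative to input goes down when input alone goes up, and the part of this in the members' values was not tested. BCL2 was lower in both measures.

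**Figure D4:**
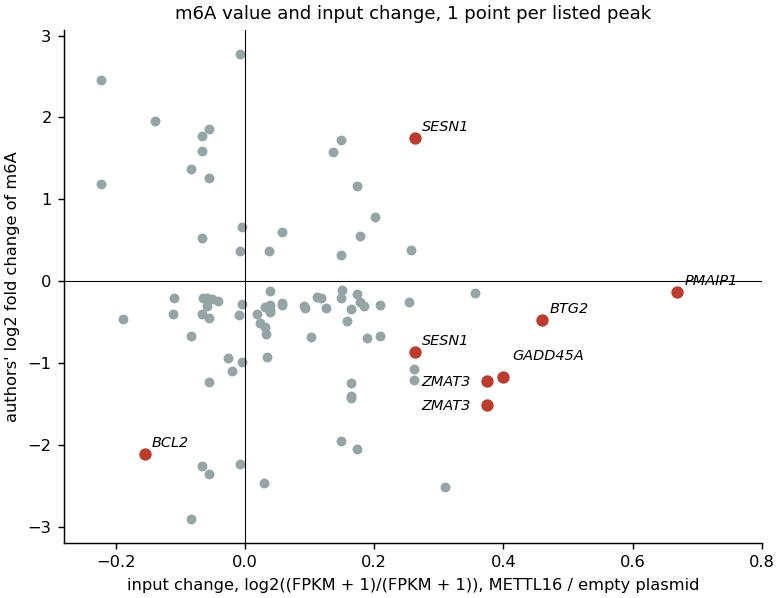
The authors' log2 fold change of m6A (vertical axis) against the input change (horizontal axis) for 89 listed peaks of the p53 and apoptosis gene lists that reach 1 FPKM in an input library, 1 point per peak, with the 6 genes in red. Of the 55 peaks on genes with an input change above 0, 45 lie below 0 on the vertical axis, and 6 of the 8 red points are among them.

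The wider p53 and apoptosis network was followed in 8 gene lists with 58 genes that reached 1 FPKM, the 6 members included. Of the 58, 38 had an input change above 0 and 20 below, with a median of 0.07 beside -0.02 over all genes. Over all genes 42.1% had a change above 0. Without the members, 33 of 52 were above 0 and the median was 0.04. Only MDM2 and PPM1D among those 52 were at least 1.2-fold higher, 3.85%, which is near the 3.46% of all genes. At least 1.2-fold lower were 0, beside 3.44% of all genes. The members' own counts follow from how they were chosen.

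Among p53 and its regulators, 4 of 11 genes had an input change above 0, beside 42.1% of all genes, and the list median was -0.06. The feedback genes were its highest, with MDM2 at 110 FPKM in the overexpression input and 85.9 in the control input (log2 change 0.36) and PPM1D at 6.80 and 5.29 (0.31). EP300, an acetyltransferase that coactivates p53, had 17.8 and 15.6 FPKM. The checkpoint kinase gene CHEK2 had 3.32 and 3.76 FPKM, and MDM4, the partner of MDM2, had 5.72 and 6.12. m6A values in this list were mixed, with 5 higher and 5 lower differential peaks of 23. Of all listed peaks 16.5% are marked higher and 27.2% lower. By the authors' deposited table MDM4 had 1.38 at a start codon peak and -2.91 and -0.67 at 3'UTR peaks. The damage kinase gene ATM had 1.86 at a 5'UTR peak and -2.35 at an intronic one in the authors' deposited table. Per the authors' deposited table the 3'UTR peaks of ATM went both ways, at -1.23, -0.44 and 1.26. An intronic peak of PPM1D stood at -2.51, as the authors' deposited table has it, with p = 0.038 and no adjusted p.

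p53 targets of cell cycle arrest and stress signalling had an input change above 0 in 10 of 14 genes, 4 members among them. Over all genes 42.1% had one, and the median of the list was 0.12. Outside the members none of this list was 1.2-fold higher, and SFN, the 14-3-3 sigma gene, was lowest with 29.4 and 31.8 FPKM. The polo-like kinase gene PLK3 had 5.40 and 5.49 FPKM and SUSD6 had 6.05 and 6.18. Of the 19 peaks of the list 15 were below 0, with 5 lower and 2 higher differential peaks. Of all listed peaks 71.5% were below 0, 27.2% are marked lower and 16.5% higher. BTG1 and TOB1, close relatives of BTG2, each had a 3'UTR peak marked differential, in opposite directions. The authors' deposited table has 2.78 for BTG1 (p = 0.033, no adjusted p given) and -2.04 for TOB1 (adjusted p = 0.017). A wider 3'UTR peak of BTG1, at 0.37, and a start codon peak of TOB1, at -0.15, are not marked there. The input levels were 8.58 and 8.63 FPKM for BTG1 and 23.7 and 20.9 for TOB1. The sestrin gene SESN2 had 17.9 and 17.5 FPKM, and the authors' deposited table has -0.32 and -0.56 for its 3'UTR peaks, unlike the split of SESN1. GADD45GIP1, which encodes a partner of the GADD45 proteins, had 7.31 and 7.204 FPKM. Over the families of the members, 8 of 9 genes had an input change above 0, beside 42.1% of all genes. The median was 0.18, and 4 of the 9 are members.

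DNA repair targets of p53 had 3 genes past the FPKM minimum, all with an input change above 0, beside 42.1% of all genes. The translesion polymerase gene POLH had 7.57 and 6.64 FPKM, REV3L had 11.5 and 9.87, and XPC, which recognises DNA damage, had 10.5 and 10.3. Like ZMAT3, POLH had lower peaks in its 3'UTR. The authors' deposited table marks 3 of them as differential, with -1.24, -1.40 and -1.42 (adjusted p = 0.012, 0.20 and 0.062). Its exonic peak, at -0.33 in the authors' deposited table, is not marked. Of all listed 3'UTR peaks 39.5% are marked differential, and peaks of 1 gene are not independent.

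p53 targets of apoptosis had an input change above 0 in 8 of 9 genes, beside 42.1% of all genes. Their median was 0.14, and PMAIP1 stood apart at the top. The oxidoreductase gene TP53I3 followed with 11.3 and 9.33 FPKM (log2 change 0.25) and the death receptor gene TNFRSF10A with 17.2 and 14.7 (0.21). BAX, the pore-forming effector, had 16.0 and 16.2 FPKM, TNFRSF10B had 44.1 and 42.9, and AIFM2 had 6.14 and 5.69. Of 13 peaks 11 were below 0, beside 71.5% of all listed peaks. By the authors' mark 0 were lower and 2 (15.4%) were higher, beside 27.2% and 16.5% of all listed peaks. The higher ones in the authors' deposited table were 3'UTR peaks of the death receptor gene FAS, at 1.58, and of the apoptosome scaffold gene APAF1, at 1.16.

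**Figure D5:**
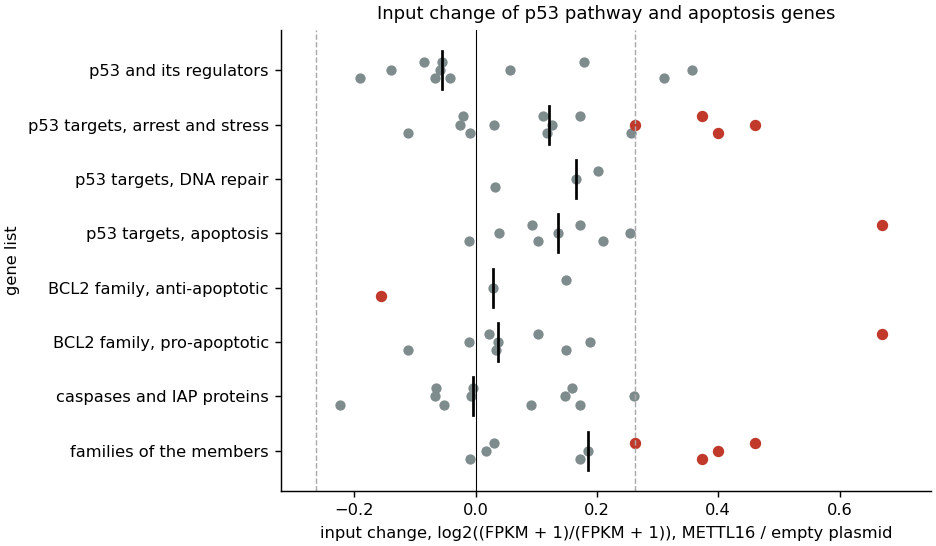
Input change of each gene of the 8 lists that reached 1 FPKM (horizontal axis, log2 scale), 1 point per gene, with the 6 members in red, list medians as black bars and the 1.2-fold lines dashed. PMAIP1 lies furthest right at 0.67, and of the grey points only MDM2 and PPM1D lie beyond the right line; genes in several lists are drawn in each.

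In the BCL2 family, the protective genes BCL2L1 and BCL2L2 had input levels of 45.9 and 41.3 FPKM and of 5.29 and 5.16 FPKM, both with a change above 0, unlike BCL2. All 3 listed peaks of the protective genes were below 0, beside 71.5% of all listed peaks. The authors' deposited table gives the 5'UTR peak of BCL2L2 a log2 value of -2.46 (p = 6.5e-05, adjusted p = 0.0036), close in size to the value of BCL2, and the stop codon peak of BCL2L1 had -0.21. On the pro-apoptotic side 7 of 9 genes had an input change above 0, beside 42.1% of all genes, with a list median of 0.04. After PMAIP1 came BAK1, with 15.0 and 13.0 FPKM, and BCL2L13, with 16.7 and 15.0. BOK was lowest with 8.76 and 9.55 FPKM, and the mitophagy receptor gene BNIP3L had 25.03 and 24.6. Of the 10 pro-apoptotic peaks 1 was differential, beside 43.7% of all listed peaks.

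Caspases and IAP proteins, which carry out and restrain apoptosis, had input changes on both sides. Of 11 genes 5 were above 0, beside 42.1% of all genes, and the list median was -0.005. APAF1 had 6.48 and 5.64 FPKM, and the IAP gene BIRC2 had 31.3 and 27.9. The adaptor genes TRADD and FADD had 2.52 and 3.10 and 16.7 and 17.5 FPKM, and BIRC6 had 14.9 and 15.7. Of 18 peaks, 5 were higher and 4 lower by the authors' mark, beside 16.5% and 27.2% of all listed peaks. In the authors' deposited table TRADD had 2.46 and 1.19 within its 5'UTR, and BIRC3 had -2.23 within its 3'UTR. Over all lists 5 of 7 peaks labelled 5'UTR were above 0, that of SESN1 and both of TRADD included, and 140 of 489 over all listed peaks. The TRADD peaks lie on 1 gene and are not independent. Without the 6 members 4 of 6 were above 0. In the broader KEGG lists of p53 signaling and apoptosis, members included, 3 of 6 and 5 of 9 were.

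The genes with the most similar pair of input levels were named by the smallest distance in log2(FPKM + 1) over the 2 input libraries. CD68, a lysosomal glycoprotein gene, was nearest to PMAIP1 with 57.7 and 41.6 FPKM, ID1 to GADD45A with 31.1 and 24.9, and PAK1IP1 to BTG2 with 15.2 and 12.1. CCDC174 was nearest to ZMAT3 with 4.76 and 3.51 FPKM, CREBRF to SESN1 with 3.49 and 2.61, and LENG8-AS1 to BCL2 with 1.08 and 1.34. In the authors' deposited table the peaks of these 6 genes were all below 0, from -0.18 for an exonic peak of CD68 to -2.999 for that of CREBRF, which lies in the 3'UTR. Of all listed peaks 71.5% were below 0. A likeness over 2 libraries is a description of levels only.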

How the data were processed

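After ribosomal RNA depletion, RNA was fragmented and precipitated with an m6A antibody, and strand-marked paired-end libraries were sequenced, per the labels' protocols. The submitters' processing notes name fastp 0.19.4 and hg38. Aligner, peak caller, expression program and use of strand: not given in the sources used here. In 1 table the authors deposited, per peak, a log2 fold change of m6A with raw and adjusted p-value, and per gene FPKM in both inputs with their fold (ratio), its log2, a p-value and a q-value. They also deposited a peak length, which is 1 more than the difference of the coordinates in all 9466 lines.

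Deposited starts count from 0: 453 minus-strand peaks start 1 base before a RefSeq gene's lowest base and 4 start on it. Starts are therefore printed with 1 added.

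Input changes used a pseudocount of 1 and, for counts, genes that reached 1 FPKM in one input or both. Groups of like abundance are 10 equal groups by mean FPKM. With 1 library per group no test was made. The count functions were tested on simulated data. Promoters came from RefSeq by symbol, and GADD45A was not matched. No genome was used, so the motif search within peaks was not run. Genes named from the lists are up to 3 per direction of input change and 3 by differential peak, with 1 FPKM or more in each input, and per member the nearest gene by input level. The members and lists were chosen with earlier results of these data known, and the KEGG lists and the promoter letters after the values were seen. Some genes of the lists are not reported here by name. Scripts ran in Python 3.11.15 with pandas 2.3.3.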

Additional observations from a re-analysis of the deposited data

How the results depend on the processing

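No paired analysis was possible because each group holds 1 library. Nothing here has a replicate check, and depth is unknown. The counts of members with higher input (5) and of their peaks with lower m6A (7, or 6 after centring on all listed peaks or on peaks of like FPKM) moved by less than 1.5 times under every alternative run for them. The m6A value of PMAIP1 turned to 0.25 and 0.049 under those centrings, by construction. The 5 differential peaks of the members became 0 at an adjusted p below 0.05 and 3 at 2-fold after centring. The input median over all lists, 0.07, was 0.038 without the members, an alternative chosen after seeing the data. The 6 list genes at least 1.2-fold higher were 22 at 1.1-fold (672 of all genes), 1 at 1.5-fold (30 of all genes) and 2 without the members. The 0 lower ones were 4 at 1.1-fold (957 of all genes). With a pseudocount of 0.1, 9 list genes were at least 1.2-fold higher and 2 lower, beside 5.62% and 7.13% of all genes. At an FPKM of at least 5 the medians of p53 regulators and of caspases and IAP proteins turned to 0.0074 and 0.042; fewer genes enter there. The search for motifs in whole or short peaks was not run. Of the 58 alternatives for single values, 43 moved by less than 1.5 times.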

Other observations

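The table's own KEGG annotation gives broader lists, used after the values were seen. Of 40 genes that it places in the p53 signaling pathway, 22 had an input change above 0, beside 42.1% of all genes. Without the members 18 of 35 did. At least 1.2-fold higher were 5 of the 40. Without the members, which were chosen for such values, the count was 2 of 35 (5.71%), beside 3.46% of all genes. The 5 were PMAIP1, GADD45A, ZMAT3, MDM2 and PPM1D. The mitotic kinase gene CDK1, with 9.07 against 11.5 FPKM, was the 1 gene of the 40 at least 1.2-fold lower, beside 3.44% of all genes. RRM2, a ribonucleotide reductase subunit needed in S phase, had 30.8 against 36.7 FPKM. The authors' deposited table has -1.05 for the peak in its 3'UTR. BTG2 carries no p53 label there.

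Of 66 genes annotated to apoptosis at an FPKM of at least 1, 34 had an input change above 0 and 32 below, and 3 were at least 1.2-fold higher (4.55%, beside 3.46% of all genes). Without the members 32 of 63 were above 0, and 1 of 63 (1.59%) was at least 1.2-fold higher. A change above 0 was found in 42.1% of all genes. The 3 were PMAIP1, GADD45A and TNFSF10, the death ligand gene TRAIL, with 28.04 FPKM in the overexpression input, 1.40 times the control level. DDIT3, the stress factor CHOP, had 34.7 against 30.1 FPKM, and the nuclear lamina gene LMNB1 had 22.1 against 26.1. By the authors' deposited table CTSB, a lysosomal protease gene, had -4.92 at a 5'UTR peak and -0.18 at one in the 3'UTR. An exonic peak of PDPK1 stood at -4.28, as the authors' deposited table has it (p = 0.030, adjusted p = 0.20).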
